A study of Mus musculus with 2 samples.

Results

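The hairpins described here are 5 microRNA genes at imprinted loci, Mir335 of Mest, Mir483 of Igf2, Mir675 of H19, and Mir296 and Mir298 beside Gnas. They were taken by name, for their place at these loci, from the 2202 annotated microRNA genes. The list was drawn up when earlier results of these data were known. Small RNA had been sequenced from adrenal glands of male B6CASTF1/J mice aged 25 days, the hybrid offspring of C57BL/6J and CAST/EiJ parents. The study holds 1 group of 2 biological replicates, untreated as far as the labels state, with no second condition. In the labels the animals have numbers of their own but one donor entry, so an SD shows how far 2 libraries lay apart, and that distance may be technical. Levels are sense-strand counts per 1000000 assigned counts (CPM).

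An imprinted gene is transcribed mainly from the copy inherited from one parent. In mice Mest and Igf2 are expressed from the paternal copy, H19 from the maternal copy, and the Gnas cluster holds both paternal and maternal transcripts. Igf2 encodes a fetal growth factor, H19 is a noncoding RNA abundant before birth, and Gnas encodes the G protein subunit through which the ACTH receptor signals in the adrenal cortex. MicroRNAs cut from such transcripts pair with target mRNAs mainly through the seed, bases 2 to 8 from the 5′ end. The count tables do not separate the parental alleles, and base differences of CAST/EiJ within these hairpins were not tested.

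All 5 hairpins matched RefSeq sequences (GRCm38.p6, the assembly of mm10) at the coordinates of GENCODE M21. The hairpins are shown first, with both mature arms in capitals, because the deposited counts are per hairpin and each arm can add to them.
Mir335: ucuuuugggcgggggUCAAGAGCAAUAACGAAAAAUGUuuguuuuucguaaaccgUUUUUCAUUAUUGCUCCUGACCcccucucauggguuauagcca
Mir483: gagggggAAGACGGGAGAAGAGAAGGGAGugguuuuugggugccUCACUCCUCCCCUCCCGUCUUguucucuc
Mir675: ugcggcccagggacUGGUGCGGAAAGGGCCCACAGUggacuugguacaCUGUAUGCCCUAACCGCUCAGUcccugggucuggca
Mir296: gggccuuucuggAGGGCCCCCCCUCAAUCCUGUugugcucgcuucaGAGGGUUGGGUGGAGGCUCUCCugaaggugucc
Mir298: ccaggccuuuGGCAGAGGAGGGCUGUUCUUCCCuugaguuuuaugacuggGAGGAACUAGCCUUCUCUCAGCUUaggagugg

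The 10 mature sequences follow with the seed in capitals, since the seed decides which hairpins could act on common targets.
mmu-miR-335-5p: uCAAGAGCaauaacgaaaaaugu
mmu-miR-335-3p: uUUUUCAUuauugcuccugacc
mmu-miR-483-5p: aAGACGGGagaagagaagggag
mmu-miR-483-3p: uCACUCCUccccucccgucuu
mmu-miR-675-5p: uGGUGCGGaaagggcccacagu
mmu-miR-675-3p: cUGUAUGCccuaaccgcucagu
mmu-miR-296-5p: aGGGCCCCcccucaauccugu
mmu-miR-296-3p: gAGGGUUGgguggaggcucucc
mmu-miR-298-5p: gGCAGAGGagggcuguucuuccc
mmu-miR-298-3p: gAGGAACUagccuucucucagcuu

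No seed was shared among the 10 mature sequences, nor with another of the 1738 mature mouse sequences in the RefSeq table. In this table, then, none of the 5 hairpins belongs to a seed family. Mir335 had the lowest GC content of the 5 hairpins, 42.9%, with 30.4% in miR-335-5p. The GC contents of Mir298, Mir483, Mir675 and Mir296 were 53.7%, 58.9%, 63.1% and 63.3%, against a median of 51.7% over 1005 RefSeq hairpins. The seed of miR-296-5p consists of G and C alone, while that of miR-335-3p holds 1 such base in 7. In miR-483-5p 21 of 22 bases are purines, and in miR-483-3p 2 of 21 are.

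The predicted folding energy (RNAfold) was -44.3 kcal/mol for Mir335, -33.8 for Mir483, -56 for Mir675, -43.2 for Mir296 and -42.7 for Mir298. Per base, Mir675 was among the most stable, with 2.19% of the RefSeq hairpins lower. No member shared 20 or more bases with another hairpin in the table. The longest shared stretches ran from 11 bases, in Mir675, to 13 bases, in Mir483. Reads with several mapping places, 31.6% and 27.0% of the input in replicates 1 and 2, entered no gene's count, and how many came from these hairpins was not tested.

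Total assigned sense counts were 3588361 in replicate 1 and 4541373 in replicate 2. The limit for a hairpin with 0 counts was 3 counts, or 0.836 and 0.661 CPM. These limits and the intervals below allow for counting error alone, because PCR copies of a molecule could not be recognised. The libraries stood apart at hairpins listed for other organs. The liver list of 8 hairpins, led by Mir122, summed to 0.204% of the counts in replicate 1 and 20.2% in replicate 2, with no listed hairpin at 0 in either library. In replicate 1 that sum was 2038 CPM, with 892 CPM from Mir122, 623 CPM from Mir148a and 327 CPM from Mir101b. How far the listed hairpins other than Mir122 are particular to liver was not tested. The skeletal muscle list of 8, led by Mir206, summed to 0.101% and 0.000132%. Of its members 2 were at 0 in replicate 1 (Mir133b and Mir133a-2) and 5 in replicate 2 (also Mir133a-1, Mir1a-1 and Mir1a-2). The neuroendocrine list had 8 of 14 members with at least 10 counts in both libraries, led by the endocrine hairpin Mir375 at 31192 CPM ± 3095 (SD, n = 2). Mir9-1, Mir9-2 and the 3 Mir124a genes were at 0 in both libraries. Reads with several mapping places entered no gene's count, and numbered copies of a hairpin can share such reads. A 0 at a numbered copy here or below, as of Mir9, Mir124a, Mir133a, Mir1a or Mir199a, therefore does not show absence. Sharing of such reads between Mir133b and the Mir133a copies was not tested, so the 0 of Mir133b does not show absence either. No list held a hairpin specific to the adrenal cortex, so the tissue label was checked only on its neuroendocrine side.

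The 5 hairpins spanned a wide range of levels in the adrenal microRNA pool, from the abundant Mir335 to Mir675 at the counting floor. Together they held 1.22% of the counts in replicate 1 and 0.793% in replicate 2, of which Mir335 supplied 93.8% and 89.9%. Levels fell in the order Mir335, Mir298, Mir296, Mir483 and Mir675, the same in both libraries, and no neighbours in that order had overlapping values. Reads of this assay stand for whole mature RNAs, so no length correction was made. Hairpins can differ in how well they are captured, so the order is a description of counts.

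**Figure D1:**
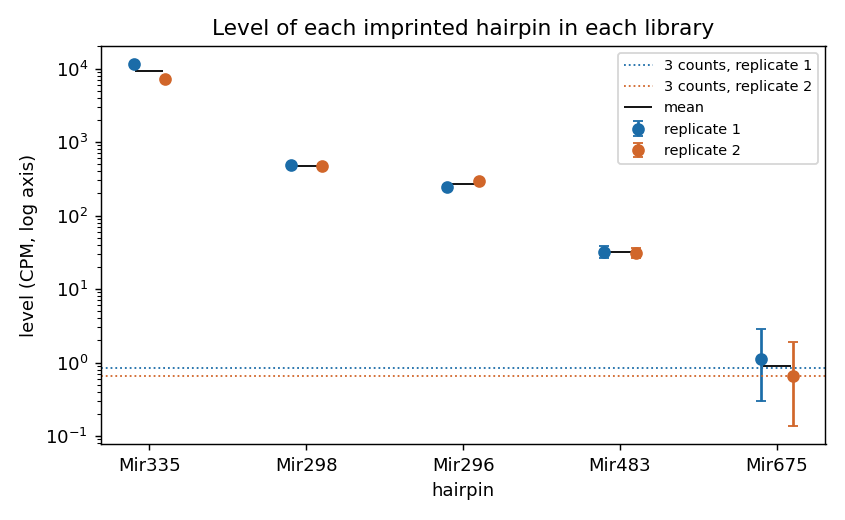
Level of each hairpin (CPM, log axis) in each library, with points for replicates, vertical bars for exact 95% Poisson intervals, black dashes for the mean and dotted lines for the level of 3 counts. Mir335 had a mean of 9266 CPM and lay highest, and Mir675 at the dotted lines, with 1.11 and 0.661 CPM.

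Mir335, whose mature product is best known as a suppressor of metastasis in breast cancer cells, lies in an intron of Mest on the same strand (mm10, chromosome 6, 30741299 to 30741396, + strand, ENSMUSG00000065501.1). It had 40933 counts in replicate 1 and 32353 in replicate 2, which gave 11407 CPM (11297 to 11518, exact 95% Poisson interval) and 7124 CPM (7047 to 7202). Replicate 1 was thus the higher library, with intervals far apart. The mean was 9266 CPM ± 3029 (SD, n = 2). The hairpin ranked 21st and 24th of 2202 in the separate libraries. Of the hairpins with at least 10 counts in both libraries, 93.5% had a lower mean. Its nearest neighbours in mean level were Mir99a (12685 CPM ± 927) and Mir30a (11184 CPM ± 4606) above, and Mir652 (8611 CPM ± 1432) and Mirlet7e (8110 CPM ± 2019) below. The values of Mir30a, Mir652 and Mirlet7e overlapped those of Mir335, and those of Mir99a did not. The closest annotated hairpin, Mir29a, lies 321264 bp away on the other strand.

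Mir298 and Mir296 stood at moderate levels, with Mir298 the higher of this pair in each library. Mouse miR-298 is known to target Bace1 mRNA, and miR-296 is known from endothelial growth and from targeting Nanog in embryonic stem cells. Both lie on the minus strand of chromosome 2 (mm10), Mir298 at 174267504 to 174267585 (ENSMUSG00000065410.1) and Mir296 at 174267047 to 174267125 (ENSMUSG00000065521.1), 379 bp apart. GENCODE M21 places neither inside another gene. The same-strand Nespas, the noncoding antisense transcript of the Gnas cluster, ends 13652 bp from Mir298 and 14112 bp from Mir296. Gnas begins on the opposite strand 16735 bp and 17195 bp away.

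Mir298 had 1725 and 2171 counts in replicates 1 and 2, or 481 CPM (458 to 504) and 478 CPM (458 to 499). The libraries were almost level for this hairpin, with a mean of 479 CPM ± 1.89 (SD, n = 2) and rank 103 in both. Mir296 had 872 and 1327 counts, or 243 CPM (227 to 260) and 292 CPM (277 to 308). Here replicate 2 was the higher library, and the mean was 268 CPM ± 34.8, at ranks 137 and 126. Apart from each other, the only annotated hairpin within 50 kb was Gm27591, with 0 counts in both libraries.

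In mean level Mir298 lay between Mir376c (501 CPM ± 56.9) above and Mir181b-2 (464 CPM ± 127) below, with Mir137 and Mirlet7c-1 next. Mir296 lay between Mir300 (269 CPM ± 26.6) and Mir144 (259 CPM ± 29.3), with Mir30c-2 and Mir196b next. The values of these 8 hairpins overlapped those of the member beside them.

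Mir483, which is overexpressed together with IGF2 in adrenocortical carcinoma, was a low-level hairpin here. It lies in an intron of Igf2 on the same strand (mm10, chromosome 7, 142654924 to 142654996, minus strand, ENSMUSG00000070140.1), where a further annotated gene, Gm49394, also spans it. It had 116 counts in replicate 1 and 141 in replicate 2, or 32.3 CPM (26.7 to 38.8) and 31.0 CPM (26.1 to 36.6). The intervals overlapped almost wholly, and the mean was 31.7 CPM ± 0.904 (SD, n = 2). Its ranks were 231 and 242, and 32.1% of the hairpins with at least 10 counts in both libraries had a lower mean. The neighbours in level were Gm49347 (31.8 CPM ± 31.9) and Mir26a-2 above, and Mir677 (30.1 CPM ± 5.86) and Mir669l below, and the values of all 4 overlapped those of Mir483.

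Mir675, known to restrain growth of the placenta, lies in an exon of H19 (mm10, chromosome 7, 142577064 to 142577147, minus strand, ENSMUSG00000076275.1), 77777 bp from Mir483. It had 4 counts in replicate 1 and 3 in replicate 2, or 1.11 CPM (0.304 to 2.85) and 0.661 CPM (0.136 to 1.93). Both values are at about the level that a count of 0 allows, and the hairpin did not enter the comparison of libraries. The table had 1 antisense count at Mir675 in replicate 2, the only antisense count at any of the 5 hairpins. The skeletal muscle list, 0.101% of counts in replicate 1 and 0.000132% in replicate 2, moved by far more than Mir675, and its part in these few counts was not tested.

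**Figure D2:**
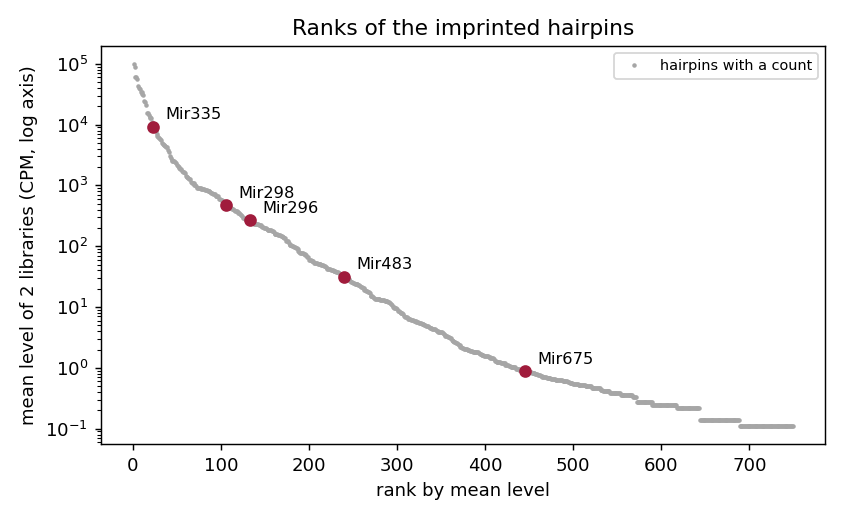
Mean level of the 2 libraries (CPM, log axis) against rank for every hairpin with a count, in grey, and the 5 imprinted hairpins in red. They sit at ranks 23, 106, 133, 240 and 445.

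Counts of 2 hairpins within 1 library can be set against each other without a library total. Mir298 had 1.98 times the counts of Mir296 in replicate 1 (1.82 to 2.15, exact 95% interval) and 1.64 times in replicate 2 (1.53 to 1.75). Mir298 was the higher in both libraries, but the intervals did not overlap, so the ratio of this neighbouring pair differed by more than counting error. On chromosome 7, Mir483 had 29 times the counts of Mir675 in replicate 1 (11.0 to 108) and 47 times in replicate 2 (15.8 to 231). These wide intervals overlap and rest on the 4 and 3 counts of Mir675.

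Ratios across loci showed Mir335 higher in replicate 1 relative to each other detected member. It had 23.7 times the counts of Mir298 in replicate 1 (22.6 to 24.9) and 14.9 times in replicate 2 (14.3 to 15.6). Against Mir296 the ratios were 46.9 (43.9 to 50.3) and 24.4 (23.1 to 25.8). Against Mir483 they were 353 (294 to 427) and 229 (194 to 273). In each of these cases the intervals of the libraries did not overlap. These 3 ratios were chosen after the values were seen. All of them use the same Mir335 counts, so they are not 3 separate observations.

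Between the libraries, Mir335 was lower and Mir296 higher in replicate 2, while Mir298 and Mir483 did not pass the test. For each of the 352 hairpins with at least 10 counts in both libraries, an exact binomial test (two-sided) asked if the reads were divided as the library totals were, and p-values were adjusted by Benjamini-Hochberg over all 352. The test compares these libraries, not conditions. It called 67.0% of the 352 at a threshold of 0.05, 30.4% as higher in replicate 2 and 36.6% as higher in replicate 1. Of the 4 members tested 2 were called, 1 in each direction, a share no higher than this background.

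Mir335 was 1.60-fold higher in replicate 1 (1.58 to 1.62). Its adjusted p was too small to be told from 0. Mir296 was 1.20-fold higher in replicate 2 (1.10 to 1.31, adjusted p = 5.04e-05, exact binomial test), and its adjusted p ran from 2.83e-20 to 0.00029 over the alternatives. Mir298 had a fold of 0.994, replicate 2 over replicate 1 (0.933 to 1.06), and Mir483 a fold of 0.960 (0.746 to 1.24). Differences of Mir483 inside that interval were not detectable at its depth.

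On the log2(CPM + 1) scale the ratio of replicate 2 over replicate 1 was -0.68 for Mir335, 0.26 for Mir296, -0.01 for Mir298 and -0.06 for Mir483. The median over all 352 hairpins was -0.04, with quartiles of -0.47 and 0.35. Mir335 was therefore outside the middle range of hairpins and the others were within it. The coefficient of variation of Mir335 over the libraries was 32.7%, against a median of 22.6% over the 352.

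**Figure D3:**
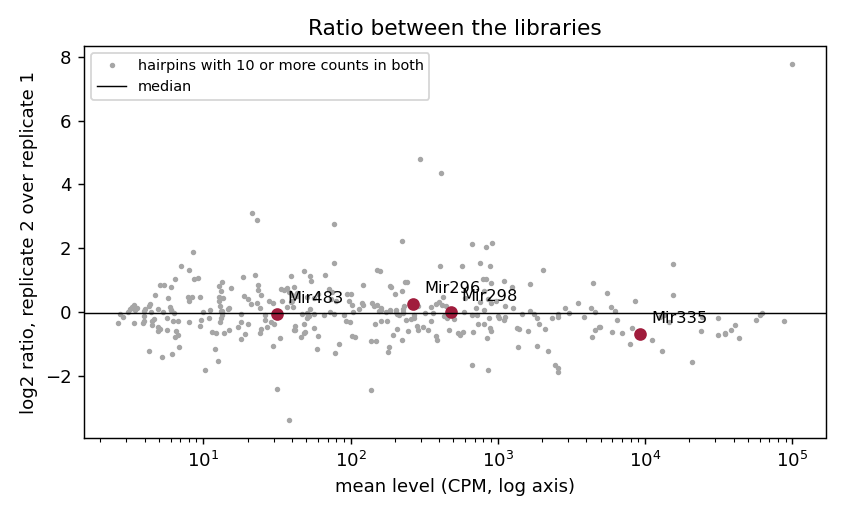
Log2 ratio of replicate 2 over replicate 1 against mean level (CPM, log axis) for the 352 hairpins with at least 10 counts in both libraries, with 4 imprinted hairpins in red and the median as a line. Mir335, at -0.68, lies below the line, and the point at the upper right is Mir122.

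The total used matters for these folds, because Mir122 took up 19.8% of the counts of replicate 2. With Mir122 out of the totals and out of the test, the median hairpin moved by 0.30 on the log2 scale. Mir335 was then 1.29-fold higher in replicate 1 (1.27 to 1.30). Mir296 was 1.50-fold (1.37 to 1.63) and Mir298 1.24-fold (1.16 to 1.32) higher in replicate 2, and both were called. Mir483 had a fold of 1.20 (0.929 to 1.54) and was not called. Under these totals 71.2% of 351 hairpins were called, 49.9% as higher in replicate 2 and 21.4% as higher in replicate 1.

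Relative to the median hairpin, the log2 ratio of Mir335 was -0.64 with all assigned counts and -0.63 with Mir122 left out. That of Mir296 was 0.30 and 0.32, that of Mir298 0.03 and 0.04, and that of Mir483 -0.02 and -0.01. A change of total shifts every log2 ratio and their median almost alike, so these pairs of values had to be close. The directions of Mir335 and Mir296 held under each of the 6 totals or columns tried, and those of Mir298 and Mir483 did not.

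**Figure D4:**
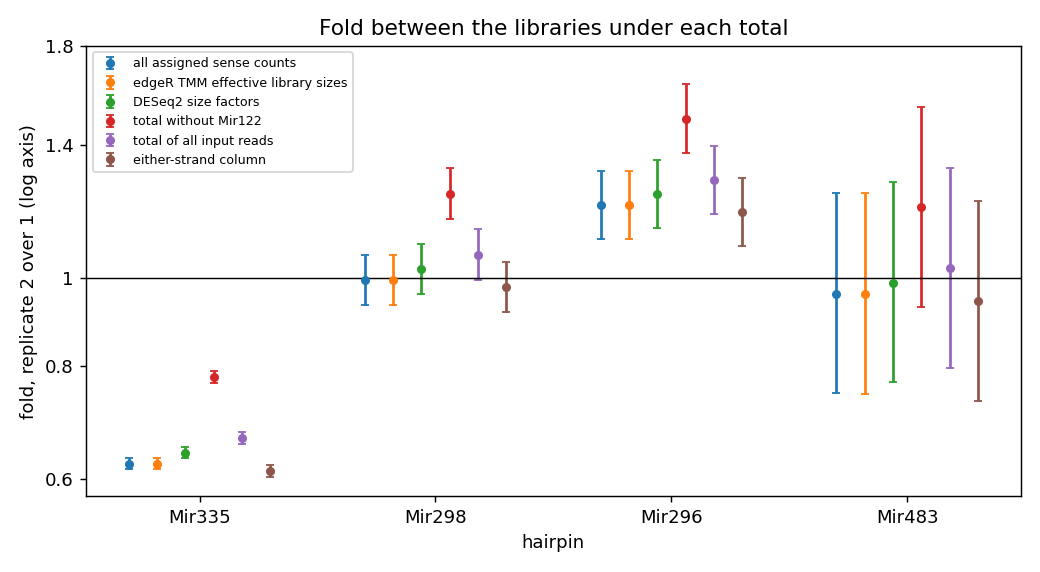
Fold of replicate 2 over replicate 1 (log axis) for the 4 hairpins with at least 10 counts in both libraries under 6 library totals or count columns, with exact 95% intervals. Mir335 lies below 1 and Mir296 above 1 under each, while Mir298 and Mir483 fall on both sides of 1.

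Hairpins of other cell types moved between the libraries as well. The stroma and smooth muscle list, led by Mir143 and Mir145a, summed to 4.98% of the counts in replicate 1 and 3.31% in replicate 2. Of its 6 members 5 were tested, with a median log2 ratio of -0.72, and the copy Mir199a-1 was at 0 in both. Of those tested, 3 passed as higher in replicate 1 and 1 as higher in replicate 2. The latter was Mir214, with 248 CPM in replicate 1 and 1088 CPM in replicate 2. With Mir122 out of the totals this list summed to 4.99% and 4.12%, with a median of -0.46 and the same numbers passing. The leukocyte list, led by Mir146 and Mir342, summed to 0.501% and 0.283%, with a median of -0.77 and all 6 members called higher in replicate 1. With Mir122 out it summed to 0.502% and 0.353%, with a median of -0.46 and 5 of 6 called higher in replicate 1. Over all tested hairpins the share called higher in replicate 1 was 36.6%, or 21.4% with Mir122 out. The sums and medians of these lists moved in the direction of Mir335, while Mir214 went the other way. The part of these lists in the difference of Mir335 was not tested. Fewer cells of a type and less RNA per cell cannot be told apart in whole tissue.

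The neuroendocrine list, led by Mir375 and Mir7b, summed to 4.07% and 3.44%, with a median of -0.34, which is also the direction of Mir335. Of its 8 tested members 5 passed as higher in replicate 1 and 2 as higher in replicate 2. With Mir122 out of the totals the direction of that sum turned, to 4.07% and 4.28%, while the median stayed negative, at -0.02. In that case 4 members passed in each direction. The adipose list, led by Mir378a and Mir455, summed to 6.35% and 6.04%, and the endothelial list, led by Mir126a and Mir130a, to 6.80% and 6.84%. Their medians were 0.08 and 0.35, and no member of either list was at 0. With Mir122 out these lists summed to 6.35% and 7.52%, and to 6.81% and 8.52%, so the direction of the adipose sum turned as well. The adipose median was positive both ways, at 0.08 and, with Mir122 out, 0.33. Of the 5 adipose members tested 2 passed as higher in replicate 2 and 1 as higher in replicate 1, or 3 and 0 with Mir122 out. Of the 4 endothelial members tested 3 passed as higher in replicate 2 and 1 as higher in replicate 1. With Mir122 out all 4 passed as higher in replicate 2, with a median of 0.67.

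The other imprinted hairpins set beside these were 56 of the Dlk1-Dio3 region on chromosome 12, most of which are expressed from the maternal copy. Of these, 47 had at least 10 counts in both libraries, as did 4 of the 5 members. The Dlk1-Dio3 hairpins summed to 5.00% of the counts in replicate 1 and 4.20% in replicate 2, and with Mir122 out of the totals to 5.01% and 5.24%, which turned the direction. Their highest were Mir127 (13473 CPM ± 640), Mir411 (6220 CPM ± 90.8) and Mir541 (4544 CPM ± 1224). Mir335 exceeded all of the 47 in mean level except Mir127. Of the 47, 14 were above Mir298, 21 above Mir296 and 44 above Mir483. Between the libraries 16 of them passed as higher in replicate 2 and 21 as higher in replicate 1, with a median log2 ratio of -0.03 against -0.04 over all 352 hairpins, of which 30.4% and 36.6% were called in those directions. With Mir122 out, 27 of the 47 passed as higher in replicate 2 and 11 as higher in replicate 1, against 49.9% and 21.4% of all 351, with medians of 0.29 and 0.26.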

How the data were processed

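MicroRNA sequencing reads of 2 adrenal libraries were used as raw counts per microRNA gene, which the authors made on mm10 with GENCODE M21, per the text deposited beside the tables. For aligner and trimming, nothing is stated in the labels or that text. Each table has 3 count columns without names. Their values showed either-strand, sense and antisense counts, and the sense column was used. The 4 summary lines, which name no gene, were kept out of totals and tests. They hold 58.6% of input reads in replicate 1 and 55.8% in replicate 2.

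CPM used the sum over all gene rows. Tested hairpins had at least 10 counts in both libraries, and log2 ratios used a pseudocount of 1 CPM. With 1 group, no model of conditions was possible. The libraries were compared per hairpin by an exact binomial test, tested first on data simulated with counting error alone. Those data held no further variation between replicates, so they do not show how the test behaves with it. Named hairpins were the members, the 2 next above and below each in mean CPM, hairpins within 50 kb or with an equal seed, and the leading members of each list. The members and lists were chosen with earlier results of these data known.

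Alternatives were edgeR 4.0.16 TMM factors, DESeq2 1.42.0 size factors, totals without Mir122, all input reads as total, counts of either strand, other count minimums and pseudocounts, and each library left out. Computation used Python 3.11.15, scipy 1.17.1, pandas 2.3.3, numpy 2.4.6, matplotlib 3.10.9, R 4.3.3 and RNAfold 2.7.2.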

Additional observations from a re-analysis of the deposited data

How the results depend on the processing

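Under the 8 alternatives of total, column and filter, Mir335 stayed lower and Mir296 higher in replicate 2, and both passed the test throughout. The fold of Mir298, replicate 2 over replicate 1, turned from 0.994 to 1.02 with DESeq2 size factors, 1.06 with the total of all input reads and 1.24 with the total without Mir122, where alone it passed. That of Mir483 turned from 0.960 to 1.02 with all input reads and 1.20 without Mir122, and passed in neither. With all input reads as total, mean levels were 3935 for Mir335, 13.5 for Mir483, 0.377 for Mir675, 115 for Mir296 and 205 for Mir298, since that total is larger. Without Mir122 they were 35.5 for Mir483, 304 for Mir296 and 538 for Mir298, and with the either-strand column 37.7, 318 and 570, since those totals are smaller. The either-strand total of replicate 1 was 2989916 against 3588361 sense counts. That column was 0 at some hairpins with an annotated hairpin on the opposite strand. Examples are Mir142 (3626 sense counts in replicate 1), opposite Mir142b, and Mir451a (4333), opposite Mir451b. Mir335 had 10148 without Mir122 and 11042 with the either-strand column, and Mir675 had 0.969 and 1.19. The number of hairpins called, 236 of 352, ran from 208 to 250 over these alternatives. Some of them also change how many hairpins were tested, so this is a range of numbers, not of shares. For the summed lists, an alternative chosen after seeing the data left Mir122 out of totals and lists. The ratio of replicate 2 over replicate 1 turned from 0.840 to 1.05 for Dlk1-Dio3, from 0.845 to 1.05 for neuroendocrine and from 0.951 to 1.18 for adipose hairpins. It moved without turning to 4.32 for liver, 0.00164 for skeletal muscle, 0.826 for stroma and smooth muscle, 1.25 for endothelial and 0.704 for leukocyte hairpins. No paired analysis was possible because the study has 1 group. Mir675 is limited by its 7 counts over both libraries.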
